A study of Arabidopsis thaliana with 6 samples.

Results

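QQS (AT3G30720) is a small protein-coding gene on chromosome 3 of Arabidopsis thaliana, read here by 1 probe set out of 22746 other than controls. It was chosen from these same arrays because its signal had the largest rise among the probe sets that name a single gene. Its levels in the 2 groups and the difference between them are therefore given as a description, without a test. The arrays held 3 samples from transgenic plants overexpressing miR159a and 3 samples from wild-type Columbia plants, all total RNA from flowers at stage 15. The arrays of both groups are lettered a, b and c as replicates. The labels do not name the promoter that drives the microRNA, the number of transgenic lines or any pooling of plants. Those used to assign the overexpressor group name no accession, so its background was not checked against Columbia. They also do not tie the letters to separate plants, so every p-value rests on how these samples vary, which may be technical. Neither miR159a nor the MYB transcripts it pairs with were analysed here, so the group labels were not checked by the transgene.

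QQS, short for QUA-QUINE STARCH, is known as an orphan gene: no relative has been recognised outside Arabidopsis thaliana. Plants with less of its transcript hold more leaf starch, and plants with more of it hold less starch and more protein. Its protein binds NF-YC4, a subunit of the NF-Y transcription factor. The gene is also known for transcript levels that differ between individuals and wild accessions together with DNA methylation at its 5' end. MicroRNA159 acts on MYB transcription factor transcripts that work in anthers and in seeds.

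Arrays a of both groups differed from b and c across many genes. The first principal component held 48.0% of the variance and separated the groups, and the second held 29.7% and separated the a arrays from the b and c arrays. The actin control had a 5' over 3' signal ratio of 0.653 on overexpressor a and 0.656 on wild-type a, against 0.379 to 0.399 on the other overexpressor arrays and 0.326 and 0.463 on the other wild-type arrays. For ubiquitin the same ratio was 0.886 and 0.807 on the a arrays and at most 0.560 elsewhere, while for GAPDH it lay between 0.694 and 0.831 on all 6. Median signals ran from 85.2 to 97.0 over the 6 arrays. With 3 arrays a group, that number limits how precise the values below can be.

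QQS was far brighter in the overexpressor. Its signal was 1086.2, 362.5 and 475.3 on overexpressor arrays a, b and c, against 90.8, 20.3 and 24.1 on wild-type arrays a, b and c. The groups did not overlap, since the lowest overexpressor signal was 3.99 times the highest wild-type signal. The mean was 641 ± 389 in the overexpressor and 45.1 ± 39.7 in wild type (SD, n = 3 each), a ratio of means of 14.2. On the scale log2(signal + 16), where 16 is a pseudocount that damps noise of dim probe sets, the difference was 3.45 (SE 0.50).

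The rank of QQS on each array shows the same shift without any pseudocount. It was brighter than 95.7%, 82.7% and 87.3% of the 22746 probe sets on overexpressor arrays a, b and c. On wild-type arrays a, b and c it was brighter than 48.5%, 25.4% and 28.8% of them. In wild type QQS thus lay at or below the middle of the array, and on arrays b and c near the lowest 25%, which was left untested. The wild-type signals on b and c were close to the pseudocount, so the size of the difference depends on it. With pseudocounts of 1 and 64 the difference was 3.97 and 2.62. It was also larger than that of any other tested probe set under those pseudocounts, under both other scalings and with any 1 array left out. QQS was chosen as the largest rise on these same arrays, so such ranks follow in part from the choice. The other scalings gave 3.54 after quantile normalisation and 3.50 after median centring.

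**Figure D1:**
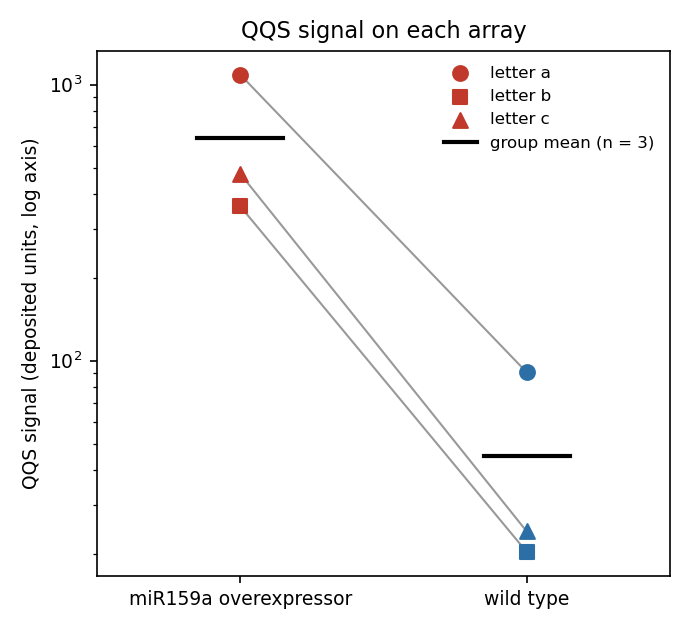
QQS signal (log axis) on each of the 6 arrays, with the 3 overexpressor arrays on the left and the 3 wild-type arrays on the right; grey lines join arrays of the same letter and bars mark the group means of 641 and 45.1. The a array is the highest of its group on both sides, and the 3 lines run nearly in parallel.

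Within each replicate letter, QQS was higher in the overexpressor by a like factor. The ratio of overexpressor to wild-type signal was 12.0 for a, 17.9 for b and 19.7 for c. On the log2(signal + 16) scale the differences were 3.37, 3.38 and 3.61, where the medians of all 17059 tested probe sets were 0.06, 0.01 and 0.04. QQS had the largest difference of all tested probe sets in each of the 3 letters. Since QQS was chosen as the largest rise over these same arrays, its ranks by letter are no separate support. With a pseudocount of 64 it ranked second in letter b and first in the other 2. The second largest difference was 2.76 in letter a, 3.18 in letter b and 2.71 in letter c. Those in a and b belong to probe sets with no gene name here. The one in c belongs to AT4G11290, a peroxidase gene. The place just below QQS was therefore taken by a different probe set in each letter.

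**Figure D2:**
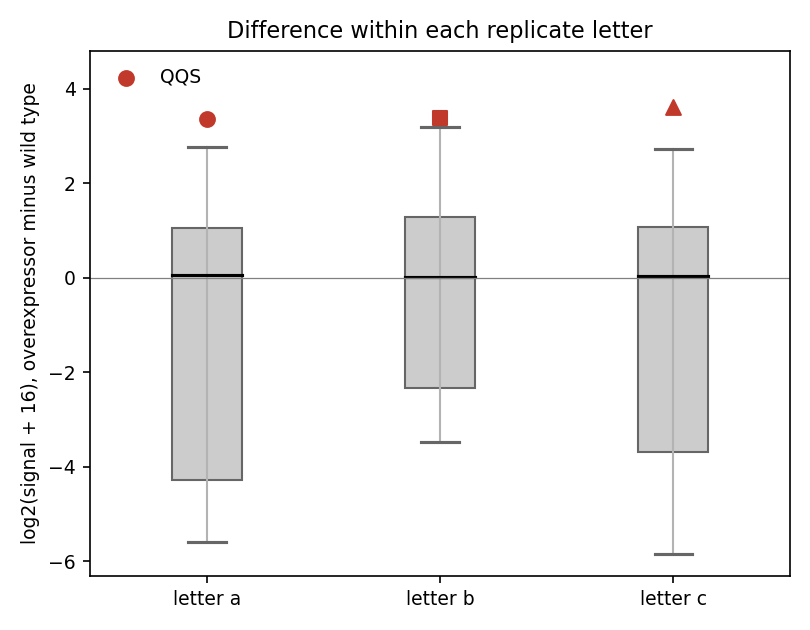
Overexpressor minus wild-type difference of log2(signal + 16) within letters a, b and c. Grey boxes span the central 99% of the other tested probe sets with their median, whiskers reach the lowest and highest of them, and the red symbols for QQS (3.37, 3.38 and 3.61) lie above the whiskers in all 3 letters.

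Over all 6 arrays, the difference of 3.45 for QQS was followed at a distance by the next largest. The probe sets with a single gene that came next were AT4G11290 with a difference of 2.30, AT5G19880 with 2.10, ADPG1 with 1.60, OCT1 with 1.46 and MSRB5 with 1.32. The first 4 of these passed the test (limma adjusted p from 0.0104 to 0.0107), and MSRB5 did not (0.254). AT4G11290 and AT5G19880 encode peroxidases, ADPG1 a polygalacturonase of pod and anther opening, OCT1 an organic cation transporter and MSRB5 a methionine sulfoxide reductase. AT5G19880 read 476.2, 544.9 and 554.7 on overexpressor arrays a, b and c, against 167.9, 82.1 and 94.9 in wild type. Its overexpressor arrays were far closer together than those of QQS. Among all 17059 tested probe sets, 23 were higher in the overexpressor at a limma adjusted p under 0.05, which is 0.135% of those tested. With the letter as a block, 71 were higher. All overexpressor arrays lay above all wild-type arrays, as for QQS, in 7.46% of the tested probe sets.

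QQS varied more within each group than nearly all probe sets of like signal. Each group's SD of log2(signal + 16) was set beside those of the 500 tested probe sets whose mean in that group was nearest. In the overexpressor the SD of QQS was 0.80, against a median of 0.21 and a 95th percentile of 0.70 among the 500, and 97.4% of them had a smaller SD. In wild type the SD of QQS was 0.86, against a median of 0.22 and a 95th percentile of 0.58, and 99.2% had a smaller SD. Only 13 of the 500 in the overexpressor and 4 of the 500 in wild type varied as much as QQS or more.

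In signal terms, the highest overexpressor array was 2.996 times the lowest, and the highest wild-type array 4.47 times the lowest. The coefficient of variation was 60.7% in the overexpressor and 88.0% in wild type. Over the 8 other settings tried, the position of QQS among probe sets of like signal stayed between 96.0% and 97.6% in the overexpressor. In wild type it stayed between 99.0% and 99.5%. Having no filter or leaving out the lowest 50% returned the main values, 97.4% and 99.2%. In wild type the 500 had mean signals of 34.9 to 40.8, below the array medians, so a 50% filter may leave few of like signal. The spread of QQS was thus wide both where the transcript was bright and where it was dim.

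**Figure D3:**
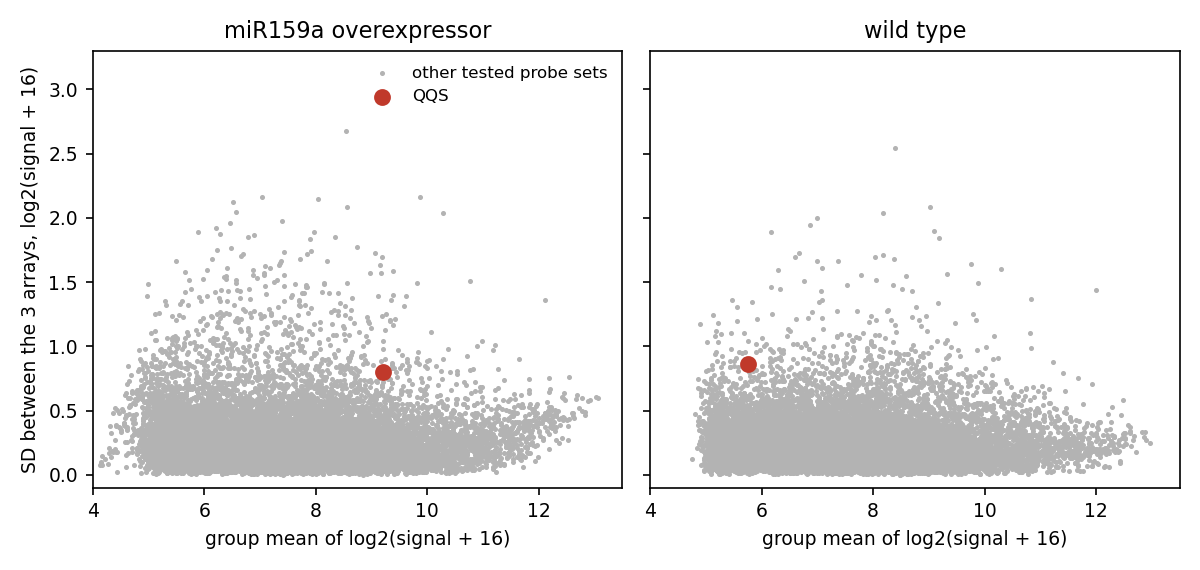
SD between the 3 arrays of a group against the group mean, both of log2(signal + 16), for every tested probe set (grey) and QQS (red), in the overexpressor on the left and wild type on the right. QQS lies above most probe sets of like mean in both, with SDs of 0.80 and 0.86.

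The wide spread of QQS came mainly from the a arrays, which were high in both groups. QQS deviated from its group mean by 0.90 on overexpressor a, -0.64 on b and -0.26 on c, and by 0.99 on wild-type a, -0.57 on b and -0.42 on c, in log2 units. The order of the arrays, a above c above b, was the same in both groups. Of the tested probe sets, 7.50% had this order in both groups, and 25.6% were highest on the a array in both. A deviation of the a array at least as large as that of QQS in both groups was seen in 54 other probe sets, 0.317% of those tested. The actin and ubiquitin ratios given above were also high on both a arrays. Their part in the QQS signal was not tested. The difference between the groups was 3.50 without both a arrays and 3.45 with them.

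The differences within letters varied less than the arrays within a group. The SD of the 3 letter differences was 0.14, against group SDs of 0.80 and 0.86. If the arrays of a letter had nothing in common, the SD of the letter differences would be near the root of the summed squared group SDs. For QQS the SD of the letter differences was 0.118 times that root, where the median over tested probe sets was 0.775, and 1.81% of them had a smaller quotient. This closeness depends in part on the pseudocount. With pseudocounts of 1 and 64 the SD of the letter differences was 0.36 and 0.28, the quotient 0.252 and 0.310, and 7.97% and 11.9% of tested probe sets had a smaller quotient. Among the 500 probe sets of nearest mean, 26.6% had letter differences with a smaller SD than QQS, and with pseudocounts of 1 and 64 that share was 74.0% and 75.6%. Set beside these 500, the letter differences of QQS were not unusually even. The 500 had mean signals over both groups of 154.9 to 169.5, above all wild-type and below all overexpressor signals of QQS. They were thus matched neither to the signal of QQS within a group nor to its spread there. With the letter as a block, the residual SD of QQS was 0.10 against 0.83 without it, and the SE of its difference was 0.14 against 0.50. Whether same-lettered arrays share material is not given in the labels.

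The genes most like QQS over all 6 arrays were found by comparing profiles. Likeness was measured as the root-mean-square difference between profiles of log2(signal + 16), each centred on its mean over the 6 arrays, among 9458 other tested single-gene probe sets. A flat profile differs from QQS by 1.86 on this measure, and the median gene by 1.85. Since the group difference makes up most of the QQS profile, the nearest genes are higher in the overexpressor by the way they were picked. The nearest was AT5G19880 at 0.89, followed by ADPG1 at 1.07, AT4G11290 at 1.13, MSRB5 at 1.14 and OCT1 at 1.17. Then came CSLA01, of the mannan synthase family, at 1.23, the peroxidase gene AT3G03670 at 1.25 and the jacalin-related lectin gene JAL23 at 1.25.

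The differences of the 8 were at most 2.30, the value for AT4G11290. MSRB5, CSLA01 and JAL23 did not pass the test (limma adjusted p from 0.254 to 0.527), and the other 5 did. MSRB5 read 403.3, 191.5 and 117.4 on overexpressor arrays a, b and c, against 105.3, 53.0 and 72.4 in wild type. CSLA01 read 670.5, 267.8 and 300.7 in the overexpressor, against 295.6, 102.2 and 175.8 in wild type. CSLA01, like QQS, had its highest signal on the a array and its lowest on the b array in both groups, but its groups overlapped.

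When each profile was centred on its group means, so that only the spread within groups counted, several genes lay close to QQS. The nearest was AT4G35335 at a root-mean-square difference of 0.08, against 0.68 for a flat profile. The next were AT2G36630 at 0.09, the glucosyltransferase gene GT72B1 at 0.10, LPR1 at 0.11, AT5G50100 at 0.12 and AT5G24710 at 0.12. LPR1 encodes a multicopper oxidase that acts in the root response to low phosphate. These 6 were picked as the nearest of 9458, and each profile has few free values, so close matches follow in part from the choice. The part of the shift shared by the a arrays was not tested.

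The signals of these genes show the pattern array by array. LPR1 read 1647.5, 581.1 and 825.8 on overexpressor arrays a, b and c, against 1409.0, 473.5 and 638.4 in wild type. AT4G35335 read 228.8, 54.5 and 80.0 in the overexpressor, against 195.2, 58.2 and 67.2 in wild type. In both genes the a array was high in each group and the groups overlapped. Over the 6 genes the difference between the groups ran from -0.27 to 0.30, and none passed the test (limma adjusted p from 0.968 to 0.994), where 2.3% of all tested probe sets did. A count of 0 in 6 genes is near that background. The 6 were also picked for a spread as wide as that of QQS, with SEs from 0.45 to 0.53, so a call was unlikely for any of them.

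**Figure D4:**
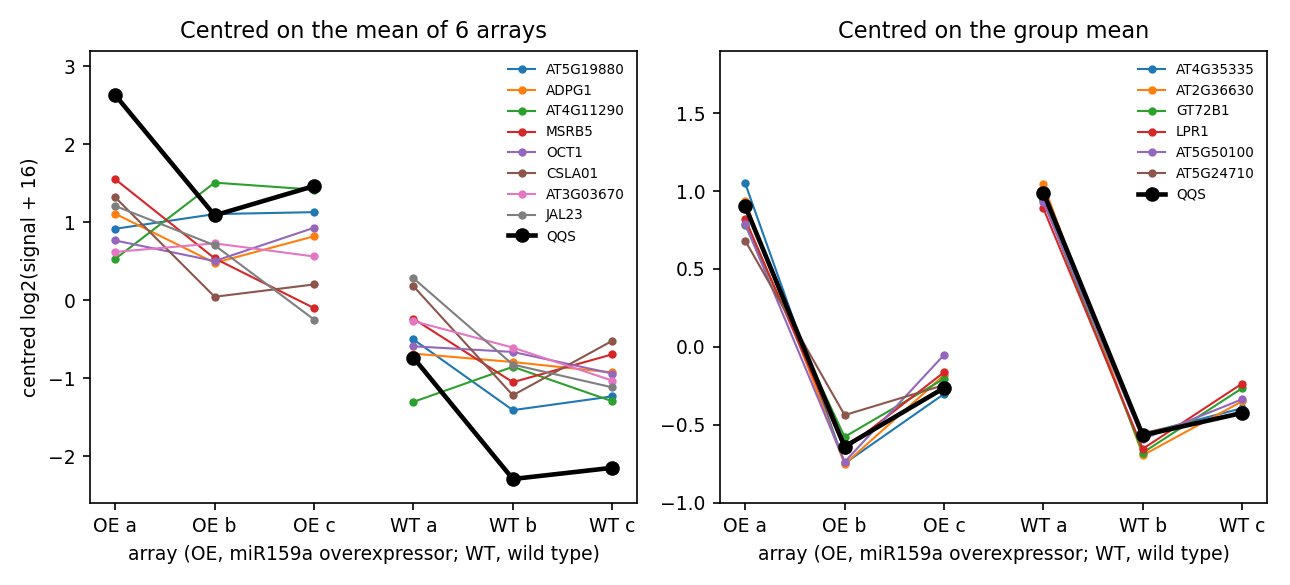
Centred log2(signal + 16) of QQS (black) on the 3 overexpressor arrays (OE) and the 3 wild-type arrays (WT), with the 8 nearest genes over 6 arrays on the left and the 6 nearest within groups on the right. On the left QQS spans a wider range than all 8 genes; on the right, with group means removed, the 6 genes lie almost on top of it.

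The genes measured around QQS on chromosome 3 gave low signals on all 6 arrays. Of the 30 genes nearest to QQS in the RefSeq order, 25 are annotated as pseudogenes and 3 as protein-coding, and 3 have a single-gene probe set. The protein-coding gene AT3G30730, 4 genes away, read 6.2, 5.0 and 12.1 on the overexpressor arrays, against 7.8, 8.8 and 0.5 on the wild-type arrays. The pseudogene AT3G30710, 12 genes away on the other side, read 2.6, 1.1 and 1.1 in the overexpressor, against 4.1, 4.1 and 5.3 in wild type. AT3G30740, a transcribed pseudogene 7 genes away, read at most 3.4 in the overexpressor and at most 7.4 in wild type.

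The comparison was widened to the 15 nearest genes with a single-gene probe set on either side. These 30 genes, 25 of them annotated as pseudogenes, had a median mean signal of 3.99, and the highest signal of any of them on any array was 31.8. That value came from bZIP42, a bZIP transcription factor gene, on wild-type a. Only the pseudogene AT3G30830 was bright enough to be tested, with a difference of 0.16 (limma adjusted p = 0.965). Over the 30 genes the difference had a median of -0.01 and ran from -0.45 to 0.53. The highest was that of the pseudogene AT3G30500, which read 4.6, 12.0 and 7.5 in the overexpressor, against 0.3, 0.7 and 0.7 in wild type. It was the only 1 of the 30 whose overexpressor arrays all lay above the wild-type arrays, and 2 had them all below, beside 7.46% and 7.2% of tested probe sets. Whether the probe set of AT3G30500 also reads related sequences was not tested. At these signals, a small change of a neighbour could not be detected.

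**Figure D5:**
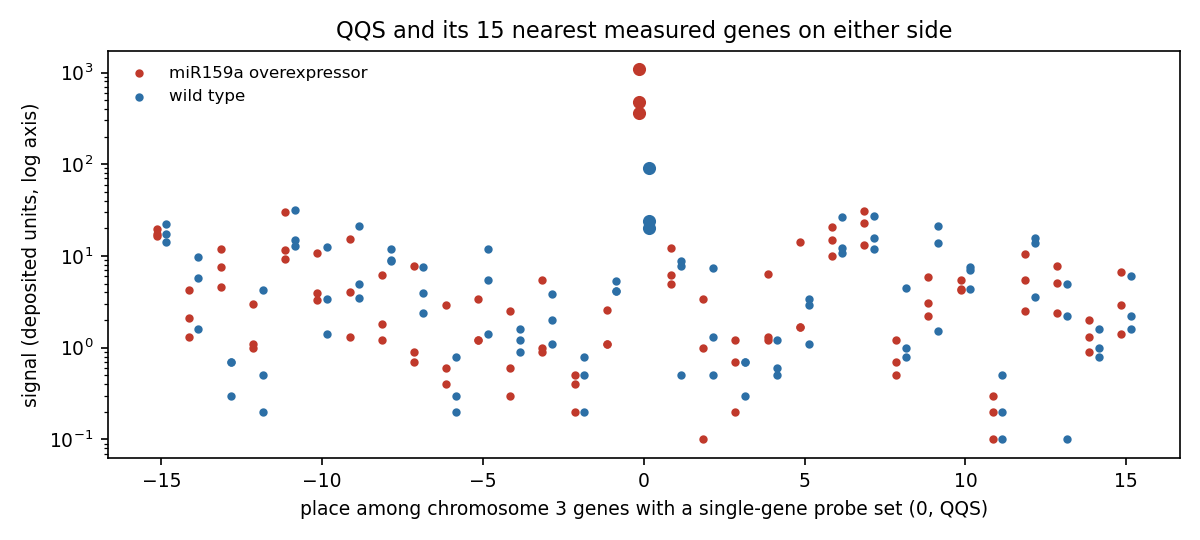
Signal (log axis; values of 0 would not be drawn, and none occurred) of QQS at place 0 and of the 15 nearest measured genes on either side along chromosome 3, with overexpressor arrays in red left of wild-type arrays in blue. The neighbours read at most 31.8, and QQS read 362.5 to 1086.2 in the overexpressor and 20.3 to 90.8 in wild type.

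Few genes of the processes tied to QQS could be read. The 7 lists on starch synthesis, starch breakdown, sucrose and trehalose phosphate, energy signalling, nitrogen assimilation, NF-Y factors and DNA methylation hold 173 genes, of which only 15 had a named single-gene probe set. All 15 were tested and 0 passed, beside 2.3% of all tested probe sets (0.135% higher and 2.17% lower), so the count is near the background. At an unadjusted p under 0.05 limma gave 0 of the 15, beside 521 higher and 978 lower of all 17059. The median difference was 0.16, beside 0.04 for all tested probe sets. The NF-Y list, with the QQS partner NF-YC4, and the nitrogen list had no named probe set, so their transcripts were not analysed here.

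Starch synthesis was read from 6 of 21 genes, with a median difference of 0.16 and 0 passing in either direction. APL3 and APL4, large subunits of the enzyme that makes ADP-glucose, had differences of 0.25 and 0.36. BE2, a starch branching enzyme, had 0.16, and PTST3, of the family of proteins targeting enzymes to starch, had 0.16. PTST1 and PTST2 of the same family had 0.16 and -0.03. APL3 read 300.3, 188.8 and 220.9 on overexpressor arrays a, b and c, against 252.7, 160.9 and 175.5 in wild type. As in QQS, its a array was the highest and its b array the lowest in each group, but its groups overlapped.

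Starch breakdown was read from 4 of 25 genes, with a median of 0.45 and 0 passing. PWD (AT5G26570), which phosphorylates starch granules ahead of their breakdown, had a difference of 0.55 (SE 0.38, limma adjusted p = 0.828). It read 434.8, 853.7 and 797.3 in the overexpressor, against 254.9, 589.7 and 604.7 in wild type. DPE1, the plastid disproportionating enzyme, read 254.2, 482.6 and 486.7 in the overexpressor, against 152.9, 359.9 and 399.3 in wild type. Both genes were lowest on the a arrays of both groups, where QQS was highest, and both were higher in the overexpressor within each letter. The share of all tested probe sets with these patterns was not counted. GWD2 (AT4G24450), a glucan water dikinase, had a difference of 0.45 and AMY1, a secreted alpha-amylase, 0.09. Unlike PWD and DPE1, GWD2 and AMY1 were highest on a among the overexpressor arrays, at 347.1 and 234.9. Both were lower in the overexpressor within letter b. With the letter as a block, 0 of the 15 genes passed as well, and limma gave 4 at an unadjusted p under 0.05, beside 1064 higher and 1358 lower of all 17059.

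The remaining list members were few. SPS4F, a sucrose phosphate synthase, had a difference of 0.20. The beta subunits of SnRK1, the kinase that responds to low energy, gave -0.40 for AKINBETA1, 0.29 for AKINBETA2 and 0.01 for AKINBETA3. Of 41 genes of DNA methylation and silencing, the group that bears on the methylation known at QQS, only DME was read. DME, which removes methylated cytosine, had a difference of 0.12 on its brightest probe set and -0.38 and -0.40 on the other 2, none of which passed (limma adjusted p from 0.873 to 0.960). With 1 gene of 41 read, these arrays do not show how this machinery behaved.

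Pollen transcripts moved with the groups in the direction opposite to QQS. Of 16 mature pollen markers, 13 had a named probe set and 12 were tested, of which 9 were lower and 0 higher in the overexpressor, beside 2.17% and 0.135% of all tested probe sets. The 9 were ANX1, ANX2, BUPS1, BUPS2, LRX8, LRX9, LRX10, LRX11 and ACT12, with differences from -3.67 to -1.69. AGL65, AGL66 and AGL104 had differences of -0.12, -0.91 and -0.77 and did not pass (limma adjusted p from 0.187 to 0.966). The list was chosen with earlier results of these data known, so the count of 9 is a description and not separate support. The count was 0 without wild-type b, 2 without overexpressor a or without overexpressor c, and 3 without wild-type a. The summed signal of the 13 markers ran from 161.1 to 537.0 on the overexpressor arrays, against 1568.8 to 3924.8 on the wild-type arrays, and none of them read exactly 0. In whole flowers, fewer cells of a type and less RNA per cell cannot be told apart. The part of pollen content in the QQS signal was not tested.

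Markers of other flower tissues were also read. Both named tapetum markers, A9 and AMS, were too dim to test, with a summed signal of 8.3 to 14.3 in the overexpressor and 9.5 to 20.0 in wild type. The 5 green tissue genes had a median of 0.24 and the 6 tested carpel and ovule genes 0.10, with 0 passing in either list. The 5 reference genes had a median of 0.08, with 0 passing. With 2.3% of all tested probe sets called, counts of 0 in lists this short are near the background. Differences in these 3 lists ran from -0.13 for NGA1 to 0.37 for NGA2, both carpel genes.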

How the data were processed

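The deposited table holds the authors' intensities on a linear scale, 1 signal per probe set (22810) and array. Which software made them is not given in the sources used here. Their trimmed mean, without the lowest and highest 2%, was 200.0 on every array, so the deposited signals had been scaled. No array pair held identical values, and detection calls were not used here.

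Values were analysed as log2(signal + 16), which understates changes of dim probe sets. Left out were 64 control probe sets and, by mean log2 value, the dimmest 25% of the rest. The remaining 17059 were tested with limma 3.58.1 (R 4.3.3, lmFit and eBayes, two-sided). P-values were adjusted by Benjamini-Hochberg, with 0.05 as threshold. Arrays were also simulated with independent normal noise around each probe set's mean, using its SD from the fit. Shifts of 1 or 2 log2 units were added to 200 simulated probe sets, and 71% and 100% of these were called, with 9 false calls. The simulation held no effect shared by same-lettered arrays, so these rates need not hold on the real arrays.

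Gene names come from the 2016 platform annotation, brought up to date by matching gene identifiers to RefSeq's TAIR10.1 table. Of 13513 probe sets with 1 gene, 13436 matched a locus and 503 others had several genes. No coordinates are given, since the array's build is not named. A gene with several probe sets is given by the brightest.

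QQS and the 12 lists were chosen with earlier results of these data known. Named genes are QQS, the 5 next rises, the 8 and 6 nearest profiles, the tested chromosome neighbours, list members that passed and up to 4 others with the smallest p in each list; further members and neighbours were named after their values were seen. Deviations from group means correlated between same-lettered arrays across probe sets (r = 0.57, 0.36 and 0.38 for a, b and c). Between groups r was 0.10 and 0.08 for b with c, and -0.42 to -0.33 for a with b or c. Deviations within a group offset one another, so these r values are not independent. The letters were treated as pairs in the fit with a block. This pairing comes from the data, not the labels. Other alternatives were pseudocounts of 1 and 64, quantile normalisation, median centring, no filter or a 50% filter, an intensity trend, array weights, each array left out, and both arrays of a letter left out.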

Additional observations from a re-analysis of the deposited data

Results flagged for a closer look

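The 25S ribosomal RNA control, used in no comparison, read 3079.6 on overexpressor a, against 29.6 and 51.2 on the other overexpressor arrays and 11.1 to 32.6 on the wild-type arrays. Overexpressor a was also the array with the brightest QQS signal, 1086.2. Without it the QQS difference was 3.004 log2 units and still the largest of the tested probe sets.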

How the results depend on the processing

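The QQS difference of 3.45 ran from 3.004 to 3.95 with 1 array left out and ranked first in all 15 alternatives, including 3.50, 3.49 and 3.37 without both arrays lettered a, b and c. These ranks follow in part from the choice of QQS as the largest rise. Leaving out both b or both c arrays was chosen after the data were seen. The QQS difference moved by more than the spread between arrays only with a pseudocount of 64, to 2.62. The replicate block left it at 3.45. The share of probe sets with more even letter differences than QQS moved from 26.6% to 74.0% with a pseudocount of 1, to 75.6% with 64, to 14.0% after quantile normalisation and to 74.4% for the coefficient of variation of the signal ratios. The 7 lists had 0 calls by limma under all 18 alternatives, with 0 to 4 of the 15 genes at an unadjusted p under 0.05. Against 23 higher, 370 lower and 9 pollen markers lower, a pseudocount of 1 gave 13, 209 and 3. No filter gave 4 pollen markers, and leaving out the lowest 50% gave 180 lower and 4 pollen markers, with different numbers of probe sets tested. Array weights gave 39 higher. The replicate block gave 71 higher and 570 lower. Without both a arrays the counts were 9, 84 and 0, without both b arrays 6, 233 and 5, and without both c arrays 0, 0 and 0. With 1 array left out, 0 to 16 were higher, 30 to 386 lower and 0 to 8 pollen markers lower. The counts of higher and lower were 14 and 196 without overexpressor a, 5 and 166 without overexpressor c, 13 and 232 without wild-type a and 0 and 30 without wild-type b, and 9 were higher without wild-type c. Where these counts were 0, limma at an unadjusted p under 0.05 had 345 higher and 9 pollen markers lower without wild-type b, 9 pollen markers lower without both a arrays, and 175, 755 and 12 without both c arrays. Apart from fewer arrays or probe sets, the cause was not tested. The wild-type signal of QQS on b and c, near the pseudocount, limits how finely its fold change can be given.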
